A study of Mus musculus with 2 samples.

Results

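The SLAM family comprised 9 receptor genes in glomerular RNA (Slamf1, Slamf6, Slamf7, Slamf8, Slamf9, Cd48, Cd84, Cd244 and Ly9), out of 20659 genes that could be named on the arrays. They were found through the RefSeq accession of each array probe, and all 13 gene probes with such an accession were taken, 2 each for Slamf6, Cd48, Cd84 and Ly9 and 1 each for the other 5 genes. The current mouse annotation lists Cd244 under the symbol Cd244a. All 13 probes lay well above background on both arrays, and 0 were marked as outliers by the scanner software.

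The arrays compared glomeruli, the filtering units of the kidney, from Sirpa-/- mice, which lack Sirpa in their podocytes (epithelial cells that wrap the glomerular capillaries), with glomeruli from wild type (WT) mice. Both groups were male, 8 months old, and had experimental lupus nephritis, brought on by one intraperitoneal dose of 0.5 ml of pristane, an oil that sets off lupus-like autoimmunity, 4 months before tissue was taken. Each group had 1 array, and no uninjected mice were analysed here. The sources used here name no Cre driver, no mouse strain and no number of animals behind each array, and the series design speaks of isolated podocytes where the labels speak of glomeruli.

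SLAM receptors are immunoglobulin superfamily proteins on the surface of leukocytes. Most of them bind the same receptor on a neighbouring cell, while CD244 binds CD48. The tails of SLAMF1, SLAMF6, SLAMF7, CD84, LY9 and CD244 carry tyrosine switch motifs that recruit the small adaptors SAP and EAT-2, and the receptors thereby tune T cell help to B cells, germinal centre reactions and NK cell killing. The genes lie together on chromosome 1, in a region that was mapped as a lupus susceptibility locus in mice. The study's title concerns antigen presentation by podocytes to T cells, and SLAM receptors are among the molecules through which lymphocytes and antigen-presenting cells signal to each other.

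The targeted gene goes against the label. Sirpa had a signal of 1562 ± 156% on the array labelled Sirpa-/-, against 1004 ± 100.4% on the WT array, where a signal is the processed fluorescence as a percent of the same array's 75th percentile over gene probes, and the error is the scanner software's own estimate. That is 1.55-fold higher, and the probe's place relative to the deleted part is not known, so every direction below compares arrays as they were labelled. Podocyte markers were present on both, with Wt1, a transcription factor of podocytes, at 6214% on the array labelled Sirpa-/- and 5131% on the WT array. Having 1 array per group, no test between the groups was possible and no p-value is given. Each difference is on the log2 scale, with the WT array subtracted from the array labelled Sirpa-/-, and describes these arrays only. A signal depends on the probe as well as on the gene, so signals do not rank genes by their level, and the sum of a marker list weighs its brightest probes most.

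Of the 9 genes, each taken by its brighter probe, 0 reached 2-fold upward on the array labelled Sirpa-/- (1.56% of all 18239 measured genes did) and 0 reached 2-fold downward (1.67% did), so these counts do not set the receptors apart from other genes. The receptors did not share a direction. Slamf8, Slamf1, Cd84 and Slamf7 were 1.26- to 1.48-fold higher, and the other 5 lay between -0.16 and -0.01. The median difference was -0.01, beside 0.0014 over all measured genes. With the mean of a gene's probes, which takes in the dimmer Slamf6 probe described below, it was 0.22. Among the 13 probes, 1 was at least 2-fold higher (7.69%, against 1.59% of all 32954 measured gene probes) and 0 were at least 2-fold lower (against 1.89%). That probe belonged to Slamf6, and the other Slamf6 probe did not show the difference.

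**Figure D1:**
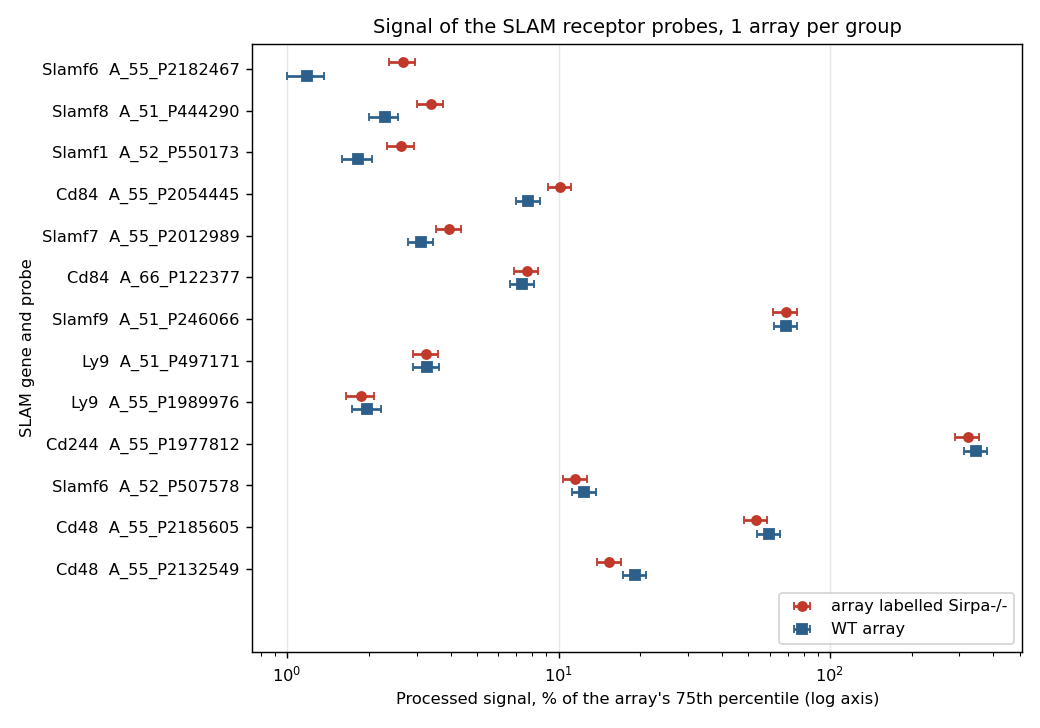
Processed signal of each SLAM probe as a percent of the array's 75th percentile (log axis), for the array labelled Sirpa-/- (circles) and the WT array (squares), 1 array per group. Bars are the scanner software's error estimate. The bars lie apart for 6 probes (Slamf6 A_55_P2182467, Slamf8, Slamf1, Slamf7, Cd84 A_55_P2054445 and Cd48 A_55_P2132549) and overlap for the other 7.

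The promoters of Slamf6, Slamf8 and Slamf1 are shown because their probes had the 3 highest differences. The sequences run from 250 bases before to 50 bases after the annotated start and come from RefSeq on GRCm38.p6, where 8 of the 9 members matched. The arrays were designed on mm9, so no other coordinates are given. Slamf6 lies at chr1:171917212-171917511 on the plus strand, Slamf8 at chr1:172590519-172590818 on the minus strand, and Slamf1 at chr1:171766882-171767181 on the plus strand. Capitals mark the E-box CANNTG, to which helix-loop-helix factors bind, sought on both strands.
Slamf6: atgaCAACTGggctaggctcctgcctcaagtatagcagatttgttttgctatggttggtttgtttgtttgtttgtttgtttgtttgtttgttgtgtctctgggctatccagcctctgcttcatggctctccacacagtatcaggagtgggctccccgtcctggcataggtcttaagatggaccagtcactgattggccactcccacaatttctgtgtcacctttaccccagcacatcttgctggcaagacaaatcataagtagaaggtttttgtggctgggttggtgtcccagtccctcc
Slamf8: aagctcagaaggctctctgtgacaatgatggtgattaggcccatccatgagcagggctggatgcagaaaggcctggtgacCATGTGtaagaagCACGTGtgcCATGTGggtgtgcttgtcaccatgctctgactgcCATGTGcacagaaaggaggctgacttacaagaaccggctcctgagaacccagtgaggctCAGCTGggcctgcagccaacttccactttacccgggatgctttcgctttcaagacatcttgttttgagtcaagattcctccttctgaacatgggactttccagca
Slamf1: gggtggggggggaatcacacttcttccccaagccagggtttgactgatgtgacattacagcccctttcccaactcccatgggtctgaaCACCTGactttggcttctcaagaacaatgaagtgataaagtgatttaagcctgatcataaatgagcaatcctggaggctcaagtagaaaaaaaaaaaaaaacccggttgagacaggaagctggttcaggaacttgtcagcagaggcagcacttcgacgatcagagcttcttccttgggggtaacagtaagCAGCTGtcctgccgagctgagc

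An E-box was found in all 8 member promoters and in 72.3% of all 32851 promoters of that length. The ETS-like letters AGGAAG were in 5 of 8 (35.4% of all promoters) and the NFAT-like letters TGGAAA in 3 of 8 (21.4%), again on either strand. These matches are descriptions of the letters and say nothing about binding in glomeruli.

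Slamf6 (Ly108) is a homophilic receptor of T, B and NK cells. Its dimmer probe, A_55_P2182467, gave 2.66 ± 0.294% on the array labelled Sirpa-/-, against 1.18 ± 0.182% on the WT array, which is 2.25-fold higher (log2 difference 1.17 ± 0.27). The brighter probe, A_52_P507578, gave 11.5 ± 1.16% on the array labelled Sirpa-/- and 12.5 ± 1.25% on the WT array, a difference of -0.11 ± 0.2. The gap of 1.28 between the probes of this gene was matched or exceeded in 1.99% of the 3824 genes with 2 measured probes, whose median gap was 0.18. Slamf6 has splice forms with different cytoplasmic tails, and where the probes lie relative to them is not known here. No direction can therefore be given for Slamf6.

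The dimmer Slamf6 spot was faint. Its median pixel value was 56 on the array labelled Sirpa-/- and 43 on the WT array, where the negative control spots had medians of 24.5 and 26 and 95th percentiles of 27.2 and 31. With normexp background correction the difference was 0.42, and with the negative control median subtracted from the pixel value, an alternative chosen after seeing the data, it was 0.97, both under 2-fold. The spots around it, within 4 rows and columns, had a median difference of 0.05 over 63 spots. Probes spotted 10 times gave a measure of technical spread at such signals. The differences of their single spots had a median SD of 0.33 over 64 probes with a processed signal of 10 to 40 units, where 4.58% of 589 spots lay at least 2-fold from their probe's mean. Of all gene probes under 50 units, 2.96% were at least 2-fold higher.

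Slamf8 and Slamf9 have short tails without the switch motif and are known mainly from macrophages and other myeloid cells. Slamf8 had a signal of 3.38 ± 0.368% on the array labelled Sirpa-/-, against 2.29 ± 0.28% on the WT array, which is 1.48-fold higher (0.57 ± 0.24). Under the other scalings and background corrections the Slamf8 difference lay between 0.36 and 0.57. Slamf9 gave 68.6 ± 6.87% on the array labelled Sirpa-/- and 68.9 ± 6.89% on the WT array, a difference of -0.01 ± 0.2, with a range from -0.03 to 0.0048 that spans 0. Macrophage and monocyte markers did not share a direction, with a median of -0.02 over 13 genes and 6 above 0.

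Slamf1 (CD150) is a homophilic receptor of T cells, B cells and macrophages. It gave 2.64 ± 0.295% on the array labelled Sirpa-/-, against 1.82 ± 0.227% on the WT array, which is 1.44-fold higher (0.53 ± 0.24). This value depended on the background correction, with 0.24 under normexp and 0.08 with the negative control median subtracted, where the pixel values were 53 and 54.5. Slamf7 (CRACC) is found on NK cells, plasma cells and activated macrophages. It gave 3.95 ± 0.41% on the array labelled Sirpa-/- and 3.12 ± 0.336% on the WT array (0.34 ± 0.22, 1.26-fold higher), and 0.3 to 0.34 under the alternatives. For scale, the median technical SD of repeated probes was 0.34 under 50 units, and the Slamf7 difference was about as large. It was 0.33 at 10 to 40 units, the band that holds the mean signals of Slamf8, Slamf1 and Slamf7.

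Cd84 is a homophilic receptor of B cells, T cells and platelets. Its brighter probe, A_55_P2054445, gave 10.1 ± 1.02% on the array labelled Sirpa-/-, against 7.73 ± 0.787% on the WT array, which is 1.31-fold higher (0.39 ± 0.21). Its other probe, A_66_P122377, gave 7.63 ± 0.773% on the array labelled Sirpa-/- and 7.35 ± 0.749% on the WT array (0.05 ± 0.21). Both probes stayed above 0 under every scaling and background correction run, at 0.38 to 0.54 and 0.04 to 0.21. A gap as large as the 0.34 between them occurred in 26.7% of genes with 2 measured probes.

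Ly9 (CD229), a homophilic receptor of T and B cells, had near-equal signals. The brighter probe, A_51_P497171, gave 3.26 ± 0.35% on the array labelled Sirpa-/- and 3.27 ± 0.354% on the WT array (-0.01 ± 0.22). The spots around it had a median difference of 0.21 over 55 spots, the highest for any SLAM probe. The dimmer probe, A_55_P1989976, gave 1.87 ± 0.226% on the array labelled Sirpa-/- and 1.97 ± 0.242% on the WT array (-0.08 ± 0.25). The sign of both Ly9 probes turned under normexp, to 0.12 and 0.23, so no direction is given for Ly9. Under normexp the median of all measured genes was itself 0.0746, against 0.0014 in the main scaling.

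Cd48 and Cd244 are a ligand and its receptor, and their 3 probes were all slightly lower on the array labelled Sirpa-/-. CD48 is anchored in the membrane by a lipid, has no tail, and in mice also binds CD2. Its brighter probe, A_55_P2185605, gave 53.4 ± 5.34% on the array labelled Sirpa-/- and 59.6 ± 5.97% on the WT array (-0.16 ± 0.2). Its other probe, A_55_P2132549, gave 15.4 ± 1.54% on the array labelled Sirpa-/-, against 19.2 ± 1.92% on the WT array (-0.32 ± 0.2, 1.24-fold lower). Both Cd48 probes stayed below 0 under every scaling and background correction run, at -0.18 to -0.12 and -0.33 to -0.19. Cd244 (2B4), a receptor of NK cells and CD8 T cells, gave 321 ± 32.1% on the array labelled Sirpa-/- and 346 ± 34.6% on the WT array (-0.11 ± 0.2), within the software's error.

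**Figure D2:**
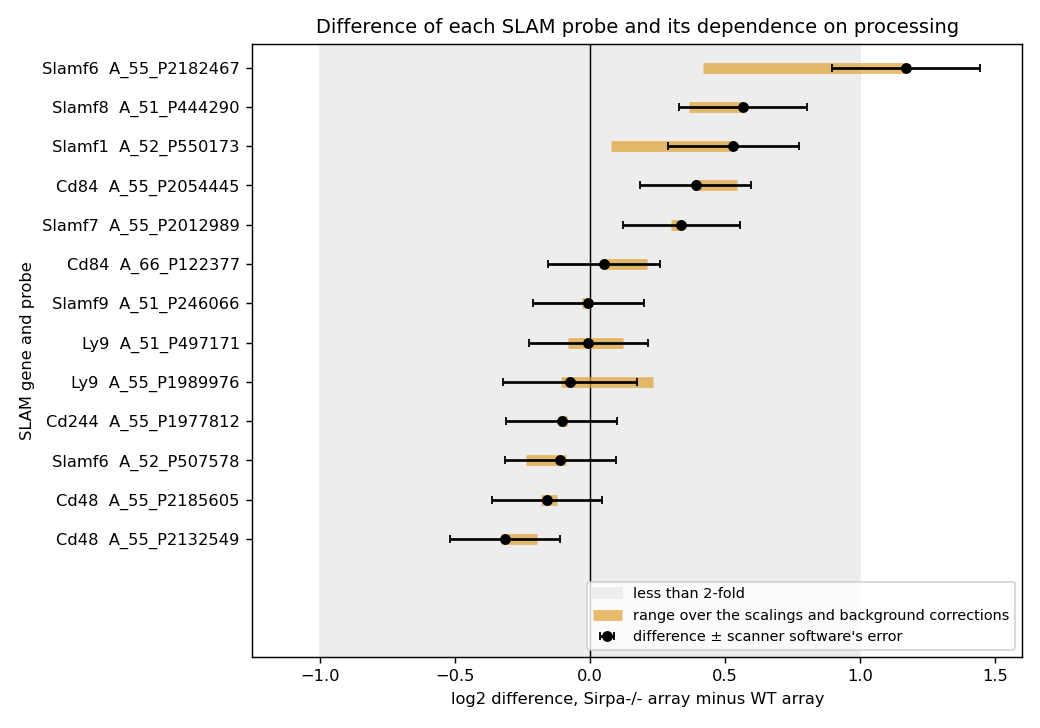
log2 difference of each SLAM probe, array labelled Sirpa-/- minus WT array, with the scanner software's error (bars) and the range over the scalings and background corrections (thick orange lines). The shaded area is less than 2-fold. Only the Slamf6 probe A_55_P2182467, at 1.17, lies outside it, and its range reaches down to 0.42.

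The adaptors and enzymes that act below the SLAM receptors also showed no change of 2-fold. Of 24 listed genes, 22 were measured, 0 reached 2-fold in either direction on the array labelled Sirpa-/-, and the median was 0.01 with 11 above 0. Sh2d1a, which encodes the adaptor SAP, gave 3.04% on the array labelled Sirpa-/-, against 1.58% on the WT array, a difference of 0.94 (1.92-fold higher). This was a dim probe, at 33.7 units on the array labelled Sirpa-/- and 18.3 on the WT array. Cd2, the T and NK cell receptor that binds CD48 in mice, gave 23.3% on the array labelled Sirpa-/-, against 12.6% on the WT array (0.89, 1.85-fold higher), and 0.32 on its other probe. These were the only genes of the list at least 1.5-fold higher, where 791 of all 18239 measured genes were.

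Sh2d1b1, which encodes the adaptor EAT-2 of NK cells, gave 0.752% on the array labelled Sirpa-/- and 1.11% on the WT array (-0.56, a dim probe). Sh2d1b2, its close relative, was not well above background on either array. Fyn, the kinase that SAP recruits, gave 119% on the array labelled Sirpa-/- and 111% on the WT array (0.11). The phosphatases that bind the receptors when SAP is absent differed little, with 0.21 for Inpp5d (SHIP-1), -0.1 for Ptpn6 (SHP-1) and -0.1 for Ptpn11 (SHP-2).

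Markers of leukocytes and kidney cells are given beside the SLAM values, and their part in these was not tested. In bulk RNA, fewer cells of a type and less RNA per cell cannot be told apart. Genes of all leukocytes had a summed signal of 1337% on the array labelled Sirpa-/- and 1294% on the WT array, a median difference of 0.13 over 14 genes, and 0 of 14 at 2-fold in either direction (1.56% of all genes were higher and 1.67% lower). Of these, Cd53 (0.39) and Dock2 (0.38) had the largest differences, and the probe of Arhgap45 (-0.11) alone gave 605% on the array labelled Sirpa-/- and 653% on the WT array.

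B cell markers stood at a summed 462% on the array labelled Sirpa-/-, against 211% on the WT array, with 8 of 14 genes at least 2-fold higher (1.56% of all genes were) and a median of 1.36. The Cd22 probe alone gave 231% on the array labelled Sirpa-/- and 46.3% on the WT array. Cd22 was 4.99-fold and Fcmr 3.71-fold higher, while Ebf1, an early B cell factor, was 2.4-fold lower. The median of 12 T cell markers was 0.45, with 10 above 0 and 0 at 2-fold, and it was 0.19 with probes above the median signal only. They summed to 218% on the array labelled Sirpa-/- and 197% on the WT array. Among them Cd3g (0.85) and Il7r (0.84) had the largest differences, and the highest probe signals were those of Cd4 (0.09) and Cd5 (-0.11).

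The median of 11 NK cell and cytotoxic markers, the cells from which CD244 is best known, was 0.14, and they summed to 382% on the array labelled Sirpa-/- and 405% on the WT array. Il2rb was 2.15-fold higher, Eomes gave 0.67 (0.22 on its other probe), Nkg7 -0.11 (0.36 on its other probe) and Gzma -0.22. For 9 dendritic cell markers the median was 0.22, and it turned to -0.0511 with probes above the median signal only. Cd209a was 2.7-fold and Clec10a 2.09-fold higher, while Siglech (-0.12) and Ccr7 (0.22), with the highest probe signals, differed less. The Siglech probe used gave 3227% on the array labelled Sirpa-/-, and its other probe only 2.03%, with a difference of -0.1. For 8 markers of plasma cells, which carry SLAMF7, the median was 0.11, with Irf4 at 0.43, Derl3 at -0.28, Xbp1 at 0.19 and Prdm1 at -0.2. Among the macrophage markers Adgre1 gave -0.91, Cx3cr1 -0.71 (-0.09 on its other probe), Mertk 0.32 and Mrc1 0.36.

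For 6 markers of platelets, which carry CD84, the median was 0.54, led by Ppbp (0.91) and Itga2b (0.9), with Pf4 at 0.86 and 0 genes at 2-fold. Erythroid markers had 4 of 6 genes at least 2-fold higher (1.56% of all genes were) and a median of 1.5, with Hbb-bt 3.23-fold, Alas2 3.06-fold and Hba-a1 2.84-fold higher. Neutrophil markers lay at 0.05 over 9 genes (Ltf -0.91, Mpo -0.74, Csf3r -0.19, S100a9 0.46) and mast cell and basophil markers at -0.07 over 5 genes (Cpa3 -0.75, Hdc 0.37, Kit -0.08). That median leaves out Ms4a2, which was above background only on the array labelled Sirpa-/- (5.92%, at least 10.2-fold higher). It also leaves out Fcer1a and Mcpt8, above background only on the WT array (at least 1.73-fold and 1.42-fold lower on the array labelled Sirpa-/-). Among kidney cells, the medians were 0.15 for podocyte markers over 10 genes (Nphs1 0.63, Cd2ap 0.34, Wt1 0.28), -0.08 for endothelial markers over 10 genes (Tie1 -0.3, Plat 0.22, Ehd3 -0.07, Kdr -0.2 and 0.09 on its other probe), and -0.05 for mesangial markers over 8 genes (Myh11 1.13, Itga8 -0.42, Pdgfrb -0.22, Gata3 -0.16). The Myh11 probe was dim, at 37.4 units on the array labelled Sirpa-/- and 17.8 on the WT array. Proximal tubule markers lay at -0.38 over 8 genes (Aqp1 -0.93, Slc5a12 -0.8, Slc34a1 -0.26 and 0.0043 on its other probe).

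**Figure D3:**
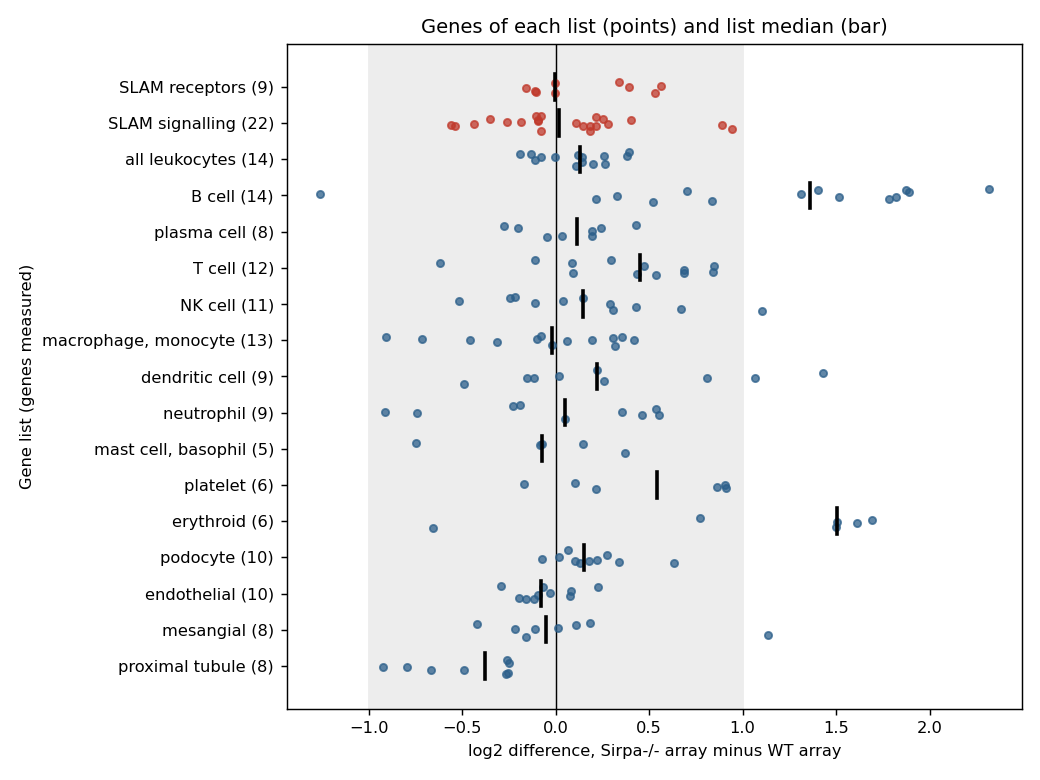
log2 difference, array labelled Sirpa-/- minus WT array, of each measured gene (points) by list, with the list median (bars) and the number of genes measured. The SLAM receptors lie within the shaded 2-fold range around a median of -0.01, while B cell and erythroid markers have medians of 1.36 and 1.5.

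The SLAM genes occupy 4 runs along chromosome 1 in the order of genes listed as protein-coding in the RefSeq table of GRCm38.p6: Cd244, Ly9, Slamf7 and Cd48 side by side, then Slamf1, Cd84 and Slamf6, then Slamf9 and Slamf8 each alone. Neighbours within 10 genes of a run numbered 39, of which 32 were measured. The median of these 32 was -0.02, with 16 above 0, 2 at least 2-fold higher (1.56% of all genes were) and 0 at least 2-fold lower. The genes directly beside the runs lay between -0.41 and 0.22, with Itln1 at 0.22, Vangl2 at -0.21, Pigm at -0.09, Igsf9 at -0.41 (1.33-fold lower) and Vsig8 at -0.22. The Itln1 probe, at 8.23 units on the array labelled Sirpa-/- and 7.36 on the WT array, lay near the lowest signals called above background (6.21 and 6.72). Tma7-ps, which the table lists as protein-coding although its symbol is that of a pseudogene, is all that parts Cd48 from Slamf1. It had no probe, and Fcrl6 was not above background on both arrays.

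The higher pair were Apcs, which encodes serum amyloid P, and Kcnj10, a potassium channel of the distal nephron. Apcs gave 16.1% on the array labelled Sirpa-/-, against 1.74% on the WT array (3.21, 9.23-fold higher). Kcnj10 gave 23.6% on the array labelled Sirpa-/-, against 9.08% on the WT array (1.38, 2.6-fold higher). Each had 1 measured probe, and the SLAM genes nearest in order, Slamf8 (0.57) and Slamf9 (-0.01), did not reach 2-fold.

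**Figure D4:**
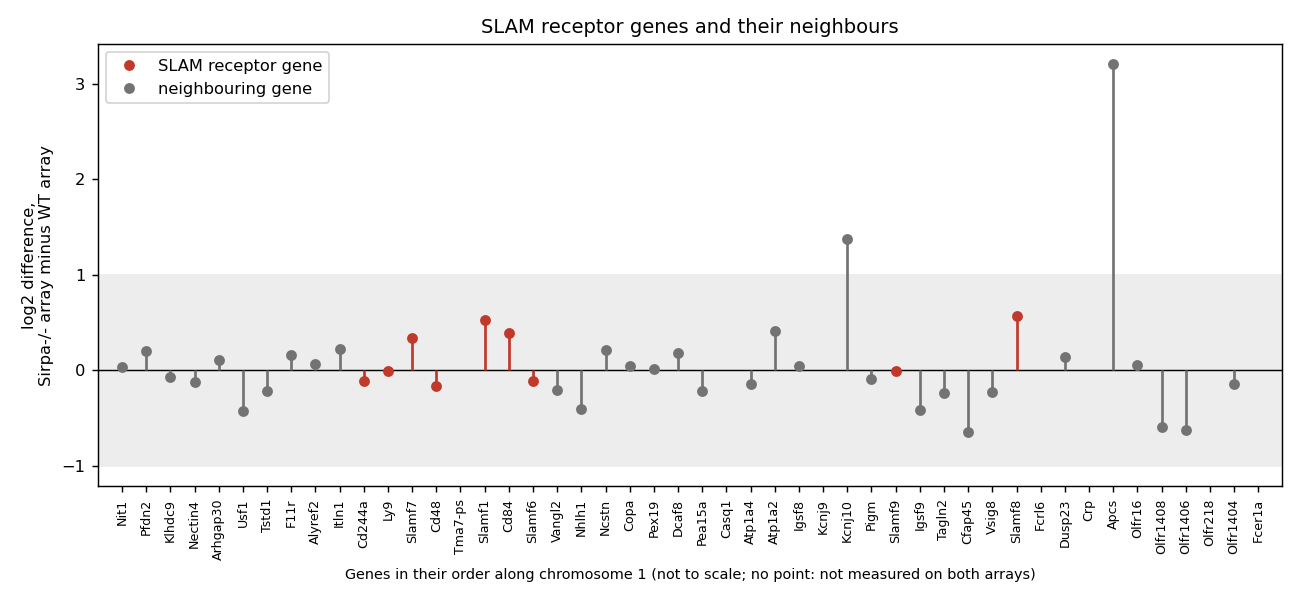
log2 difference, array labelled Sirpa-/- minus WT array, of the SLAM receptor genes (red) and their neighbours (grey) in gene order along chromosome 1, not to scale; Cd244 appears under its current symbol Cd244a. Outside the shaded 2-fold range lie Kcnj10 at 1.38 and Apcs at 3.21, both neighbours.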

How the data were processed

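Glomerular RNA of 2 groups, 1 array each, was measured on Agilent one-colour mouse arrays (Cy3). Per the file headers, the deposited scanner files hold fluorescence intensity that the authors extracted with Agilent Feature Extraction 11.0.1.1, used here as its processed signal; the submitters' processing notes name version 9.1. Other values are quality flags, per the file headers. The authors' deposited log2 table, for which the sources used here name no steps, served as an alternative.

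Processed intensities were put on the log2 scale, each probe was taken as the mean of its unmarked spots, and each array was set relative to its 75th percentile over 39429 gene probes (1109 units on the array labelled Sirpa-/- and 1157 on the WT array). A probe counted as measured if, on each array, over 50% of its spots passed the scanner's background call; 86.7% of gene probes on the array labelled Sirpa-/- and 85.3% on the WT array did. Both arrays lay on slide 1, and 0 gene spots were saturated. Of 28684 probes with a RefSeq accession, 27234 matched a gene table of GRCm38.p6. With 1 array per group no test was made; genes were counted at 2-fold. The members, lists and naming rule were chosen with earlier results of these data known. Named were all members, set signalling genes, neighbours past 2-fold or directly beside members, and, per cell type list, the 2 largest differences and the 2 brightest genes; a gene that this rule names among the podocyte markers is not reported here. Mast cell and basophil markers above background on 1 array only were also named, with a bound. The bound sets the signal against the other array's signal or, if higher, that array's lowest signal called above background. Normexp used the median pixel signal. Longer motifs were also searched and are not reported here. A planned protein comparison was not made, as no protein sequences were used here. The counting was tested on simulated data. Alternatives were quantile, median and loess scaling and normexp with an offset of 50 (limma 3.58.1), the authors' table, other filters on dim probes, outlier spots kept, the mean of a gene's probes and a 1.5-fold threshold; 1 was added after seeing the data. Python 3.11.15 and pandas 2.3.3 were used.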

Additional observations from a re-analysis of the deposited data

How the results depend on the processing

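No SLAM gene, taken by its brighter probe, reached 2-fold under any of the 11 alternatives. The count of SLAM probes at least 2-fold higher was 0 in place of 1 under normexp, with the negative control median subtracted (chosen after seeing the data), and with probes above the median signal only, since the dimmer Slamf6 probe fell below 2-fold or out of the set. The SLAM median of -0.01 was 0.12 under normexp and -0.11 with probes above the median signal. With the mean of a gene's probes it was 0.22. In the same order, the signalling median of 0.01 was 0.11, 0.11 and -0.0796. Normexp also moved the median of all measured genes, from 0.0014 to 0.0746. Among the receptors, only Cd244, Cd48, Slamf6 and Slamf9 had a probe above the median signal. The mean of a gene's probes took in the dimmer Slamf6 probe (1.17). What moved the signalling median was not tested. Signalling genes at least 2-fold higher numbered 1 with no filter on dim probes, and 2 at 1.5-fold. Neighbours higher numbered 1 with probes above the median signal, and neighbours lower 2 with no filter and 3 at 1.5-fold. The B cell median of 1.36 was 0.82 under normexp and 1.59 with probes above the median signal. Other cell type medians turned sign under at least 1 alternative: macrophage to 0.11 and mast cell to 0.11 under normexp, mesangial to 0.035 under normexp, neutrophil to -0.0707 with no filter, and dendritic cell to -0.0511 with probes above the median signal. The T cell median was 0.31 under normexp and 0.19 with probes above the median signal, and the dendritic cell median 0.0966 with the negative control median subtracted. Over all genes, 285 were higher and 304 lower (48.4% higher); normexp gave 113 and 80 (58.5%), no filter 670 and 613, probes above the median signal 113 and 127, and 1.5-fold 791 and 962. No paired analysis was possible because each group has 1 array. The precision is limited by there being 1 array per group and by dim signals, as 8 of the 13 SLAM probes lay below the median probe signal of 104.6 units.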

Other observations

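Brighter and dimmer SLAM probes differed in how many lay above 0. On the array labelled Sirpa-/-, 0 of the 5 SLAM probes at or above the median probe signal were higher (Cd244, both Cd48 probes, Slamf9 and the brighter Slamf6 probe all lay below 0, though Slamf9 turned to 0.0048 under normexp), against 6 of the 8 dimmer SLAM probes. Over all measured gene probes the shares above 0 were 52.0% of the 19712 brighter and 50.2% of the 13237 dimmer ones. For 4 of the 5 brighter probes (all but Cd48 A_55_P2132549) the difference was within the software's error, and both Ly9 probes, which are dim, lay below 0. Probes of one gene are not independent, and this pattern was seen in the data and not tested.

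The dimmer Slamf6 probe was not alone in parting from its gene's brighter probe. Among 3824 genes with 2 measured probes, 64 had a dimmer probe that was higher by 2-fold or more on the array labelled Sirpa-/-. In 23 of these the brighter probe was at least 1.5-fold higher, while in 26 it lay below 0, as in Slamf6.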
